A study of Homo sapiens with 12 samples.

Results

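The genes of the transforming growth factor beta (TGF-beta), bone morphogenetic protein (BMP) and activin pathway were followed in C4-2 cells. C4-2 is a human prostate cancer line raised from LNCaP cells and resistant to castration. Members were taken by symbol: the BMP, GDF (except GDF15), TGF-beta and inhibin beta ligands, their receptors, the SMAD, SMURF and ID families, and NOG, GREM1, BAMBI, FST, SKI and SKIL. This gave 59 members among 56269 symbols, of which 36 passed the filter on low counts and were tested. The other 23 were read as raw counts.

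The 4 groups crossed an siRNA with a hormone, with 3 libraries each. Cells received nonspecific siRNA or siRNA against PXN for 48 h; PXN codes for paxillin, an adaptor protein of focal adhesions. They then spent 12 h without serum and 24 h with ethanol vehicle or 2.5 nM dihydrotestosterone (DHT), the androgen. All 4 groups thus share transfection and serum withdrawal and all come from a single line. Nothing in the labels says that the 3 libraries of a group came from separate cultures, so p-values measure only the spread between these libraries, which may be technical.

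Library totals ran from 11944906 counts, in nonspecific vehicle replicate 1, to 32040465, and 1 count was worth 0.0328 to 0.0815 CPM, the counts scaled to a common library total. PXN stood at 121 to 151 CPM in the 6 nonspecific libraries and at 9.36 to 16.7 CPM in the 6 paxillin siRNA libraries. All 10 prostate luminal markers were tested, and their summed level was 7550 to 9698 CPM in vehicle and 16120 to 18170 CPM in DHT. Under each siRNA 6 of them rose with DHT and 3 fell, so the sum does not stand for every marker. FOLH1 was among those that fell, from 1827 to 1210 CPM under nonspecific siRNA. In the same test, 40.5% and 38% of all genes passed for DHT under nonspecific and paxillin siRNA. The paxillin siRNA raised 3 luminal markers and lowered 1 in vehicle, and raised 0 and lowered 2 in DHT. Of all genes 20.5% and 13.3% passed in these comparisons. Basal markers (KRT5, KRT14, TP63) summed to at most 0.637 CPM. Of the stromal markers, DCN, LUM and COL1A2 had at most 4 counts in any library, while COL1A1 ran from 24.8 to 47.6 CPM and COL3A1, ACTA2 and PDGFRB reached at most 1.81, 3.26 and 1.81 CPM. These 7 summed to 41.4 to 51.4 CPM in nonspecific vehicle, 36.6 to 40.7 in nonspecific DHT, 38.9 to 40.2 in paxillin vehicle and 27.6 to 30.3 in paxillin DHT. Among immune and endothelial markers CD3E had 0 counts, PTPRC at most 2, and VWF 8.30 to 14.95 CPM.

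In this pathway a dimeric ligand brings together type I and type II receptor kinases, and the type I receptor phosphorylates receptor SMADs. TGF-beta and activin act mainly through SMAD2 and SMAD3, and BMPs through SMAD1, SMAD5 and SMAD9. These join SMAD4 in the nucleus, while SMAD6, SMAD7, the SMURF ubiquitin ligases, the SKI corepressors and the decoy receptor BAMBI hold the signal back. TGF-beta restrains growth of normal prostate epithelium, and LNCaP cells are known for poor TGF-beta responses with little type II receptor.

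The 36 tested members covered every tier of the pathway at very different levels. On the scale of CPM per kb of exon in nonspecific vehicle, the highest were the corepressor SKI at 18.7, the activin receptor ACVR1B at 17.5, the BMP type II receptor BMPR2 at 15.8 and the ligand GDF11 at 14.2. The lowest were TGFB2 at 0.0280, TGFB1 at 0.123, TGFBR2 at 0.313, TGFB3 at 0.411 and INHBE at 0.549. The TGF-beta ligands and their type II receptor were thus the scarcest tested members, beside the activin subunit INHBE. Dividing by the median transcript length in place of all exons kept the same genes as the lowest 5 but raised others, for example SMAD3 from 1.66 to 7.86, SMAD2 from 2.03 to 6.87 and ACVR1B to 54.3 CPM per kb. The order among the well-expressed members therefore depends on the length used.

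**Figure D1:**
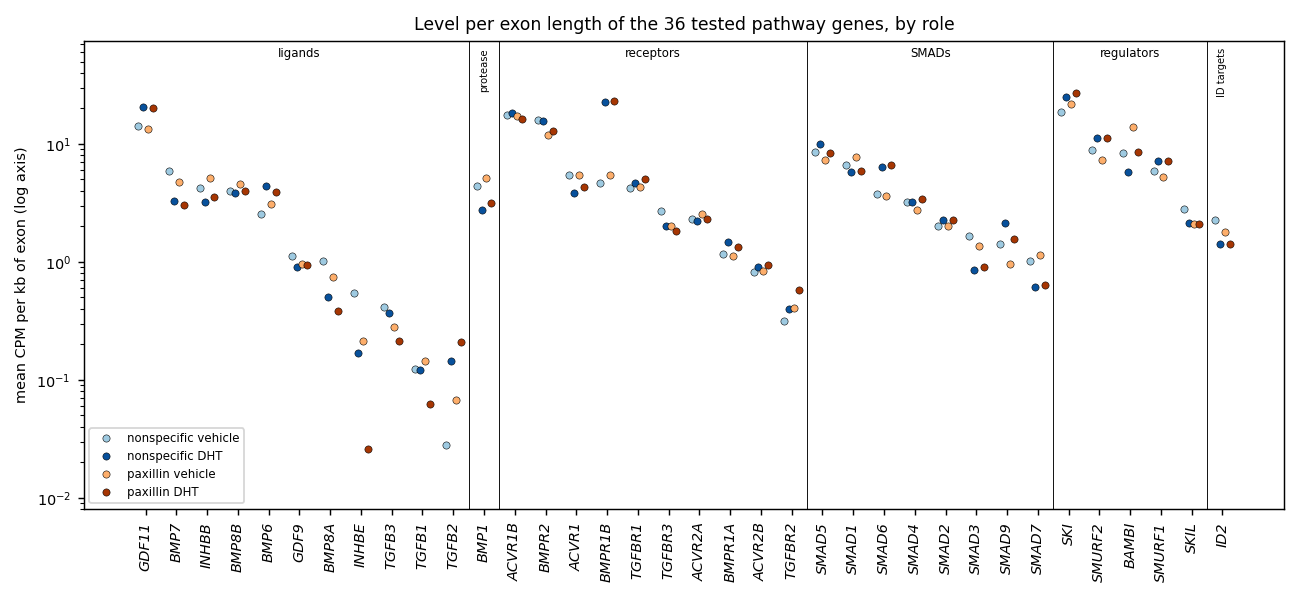
Mean level of each tested member in CPM per kb of exon, on a log axis, in the 4 groups (3 libraries each, coloured points), ordered by role and then by level in nonspecific vehicle. TGF-beta ligands lie at the bottom, from 0.0280 CPM per kb for TGFB2, and SKI, ACVR1B, BMPR2 and GDF11 at the top; BMPR1B moves from 4.64 to 22.8 CPM per kb with DHT under nonspecific siRNA.

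The first question the design asks is how DHT moves these genes. Under nonspecific siRNA DHT raised 11 of the 36 members and lowered 12 (63.9% in either direction), where 40.5% of all 16115 tested genes were called, 21.6% higher and 18.9% lower. Under paxillin siRNA it raised 13 and lowered 10 (63.9%), where 38% of all genes were called, 20.1% higher and 17.9% lower. A call is a Benjamini-Hochberg adjusted p under 0.05 over all tested genes in edgeR's quasi-likelihood test. In such bulk RNA, fewer cells of a type and less RNA per cell cannot be told apart. The part of the mixed luminal marker changes with DHT in these counts was not tested. The median log2 fold change was -0.02 and -0.01 for the members and -0.01 in both arms for all genes, while the median size was 0.40 and 0.41 for the members against 0.27 and 0.25 for all genes. With upper-quartile scaling the calls over all genes turned from 3481 higher and 3053 lower to 2707 and 3896 under nonspecific siRNA, and from 3234 and 2886 to 2262 and 3935 under paxillin siRNA. The members then stood at 10 higher and 13 lower, and at 9 higher and 13 lower.

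The DHT arms share no library. Of the 36 members 11 rose in both, 9 fell in both and 0 moved in opposite directions. SKIL, TGFBR3 and ID2 passed under nonspecific siRNA alone, SMAD4, SMAD1 and TGFBR1 under paxillin siRNA alone, and 10 passed in neither. The vehicle and DHT libraries did not overlap for 26 members under nonspecific and 25 under paxillin siRNA, where 50.4% and 48.6% of all genes had such separate groups.

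**Figure D2:**
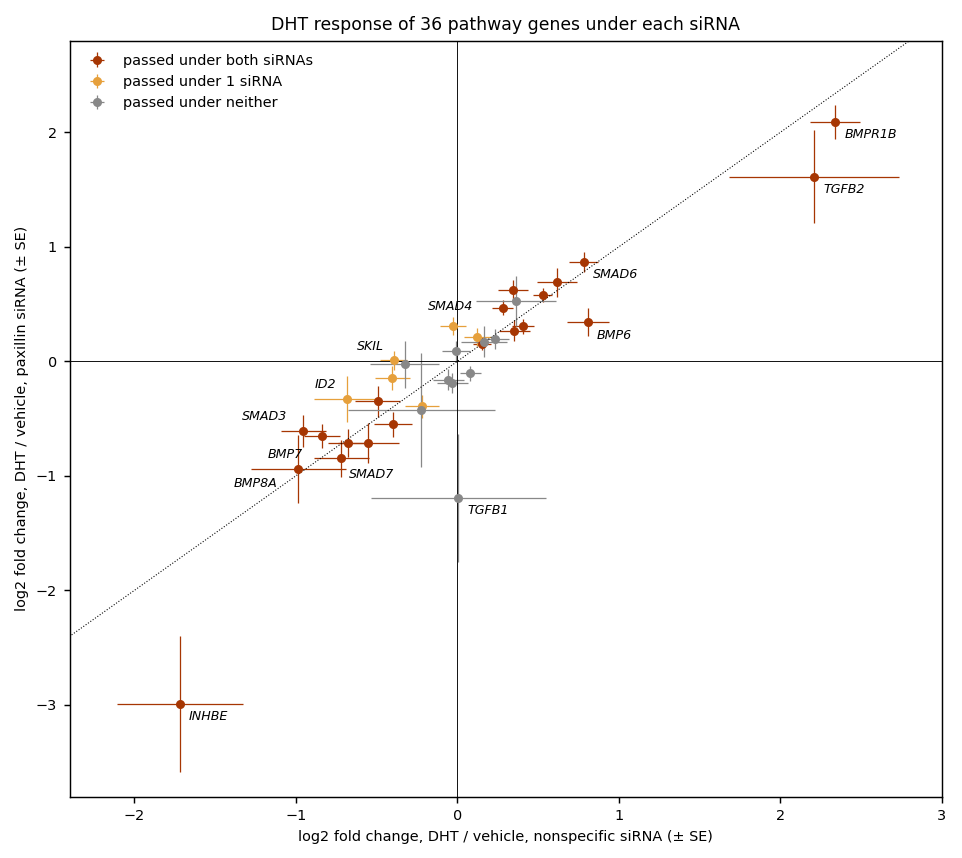
Log2 fold change of DHT over vehicle for the 36 tested members under nonspecific siRNA (x axis) and paxillin siRNA (y axis), with standard errors (SE) as bars and the line of equal change dotted. BMPR1B and TGFB2 lie farthest up at 2.34 and 2.21 on the x axis and INHBE lowest at -1.72, and 31 of the 36 members have the same sign on both axes. The share of all genes with the same sign was not counted.

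Among the ligands, the changes went both ways. The most abundant, GDF11, a relative of myostatin (chr12:55743280-55757278), stood at 130.2, 120.3 and 119.5 CPM in nonspecific vehicle and at 175, 179 and 179 CPM in nonspecific DHT. All its DHT libraries lay above all its vehicle libraries, and it rose by 0.53 ± 0.061 (log2 fold change ± SE, adjusted p = 1.6e-06). With the paxillin siRNA it rose from 118, 114 and 118 to 186, 174 and 162.5 CPM, a log2 fold change of 0.58 ± 0.060 (adjusted p = 5e-07). BMP6 (chr6:7726797-7881422) measured 7.66, 6.90 and 6.66 CPM in nonspecific vehicle and 12.4, 13.3 and 11.2 CPM in nonspecific DHT, a rise of 0.81 ± 0.129 (adjusted p = 6.8e-05). Under paxillin siRNA its vehicle libraries (7.50, 8.21 and 10.2 CPM) overlapped its DHT libraries (11.6, 11.3 and 9.79 CPM). The rise there was 0.34 ± 0.122 (adjusted p = 0.036), and 7 of 18 alternatives lost the call, among them upper-quartile scaling and leaving out replicate 1 or 2 of either paxillin group or nonspecific vehicle replicate 2 (adjusted p up to 0.18).

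BMP7, a BMP of kidney and bone development (chr20:57168748-57266629), fell. It read 26.5, 23.6 and 25.2 CPM in nonspecific vehicle against 12.5, 13.9 and 15.6 CPM in nonspecific DHT, a change of -0.84 ± 0.109 (adjusted p = 7.1e-06). In the paxillin siRNA arm it went from 22.0, 19.8 and 18.3 to 11.1, 13.1 and 14.2 CPM (-0.65 ± 0.108, adjusted p = 1.1e-04). In both arms all DHT libraries lay below all vehicle libraries. INHBB, the activin B subunit, also fell in both arms, by 0.40 and 0.55 on the log2 scale from 13.6 and 16.6 CPM, and its first call was lost without nonspecific vehicle replicate 3 (adjusted p 0.051).

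INHBE, the inhibin beta E subunit known chiefly from liver (chr12:57452323-57459280), was scarce and fell most. Its libraries read 1.06, 1.51 and 1.43 CPM in nonspecific vehicle and 0.257, 0.567 and 0.412 CPM in nonspecific DHT, a sum of 90 against 30 counts. They read 0.756, 0.292 and 0.507 CPM in paxillin vehicle and 0.0328, 0.0394 and 0.117 CPM in paxillin DHT, 45 against 5 counts. The log2 fold change was -1.72 ± 0.391 (adjusted p = 0.0018) and -2.99 ± 0.593 (adjusted p = 6e-04). As ratios of counts scaled to depth, INHBE was 3.38-fold lower with DHT (95% exact interval 2.22 to 5.30) and 8.60-fold lower (3.43 to 27.8). The lowest group holds few counts, and these intervals cover counting error only.

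BMP8A fell in both arms, by 0.99 ± 0.295 from 1.72 CPM and by 0.94 ± 0.299 from 1.26 CPM (log2), while its more abundant paralog BMP8B (18.6 to 22.2 CPM in the group means) showed changes of -0.03 ± 0.095 and -0.19 ± 0.091 that did not pass. The second of these passed with upper-quartile scaling (adjusted p = 0.019) and with the replicate block (0.041). These genes are near-identical copies, and PPIEL overlaps 15.8% of the exon bases of BMP8A, so how their reads were divided is uncertain. The BMP8A calls were lost without nonspecific DHT replicate 3 (adjusted p 0.056) and in the second arm without replicate 1 of paxillin vehicle or 3 of paxillin DHT (up to 0.13). BMP1, a procollagen protease named with the BMPs but not a ligand, fell from 21.0 to 13.1 CPM and from 24.6 to 15.05 CPM (-0.68 ± 0.126 and -0.71 ± 0.121).

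The classical TGF-beta ligands were near the limit of detection. TGFB1 had 21, 24, 34 and 14 counts in nonspecific vehicle, nonspecific DHT, paxillin vehicle and paxillin DHT, and no comparison passed. Its 3 paxillin DHT libraries, at 0.155 to 0.197 CPM, lay below the paxillin vehicle libraries at 0.292 to 0.507 CPM, a change of -1.19 ± 0.560 (adjusted p = 0.11). TGFB2 (chr1:218346235-218444619) read 0.0815, 0.155 and 0.188 CPM in nonspecific vehicle and 0.685, 0.828 and 0.675 CPM in nonspecific DHT, 10 against 53 counts, and rose by 2.21 ± 0.527 (adjusted p = 0.0026). Under paxillin siRNA it rose from 0.329, 0.584 and 0.109 to 0.819, 1.1 and 1.24 CPM (1.61 ± 0.405, adjusted p = 0.0042), 29 against 85 counts. The overlapping transcript TGFB2-OT1 lies on the same strand over 26.6% of its exon bases, so its counts are uncertain. TGFB3 (0.594 to 1.14 CPM in the group means) and GDF9 (2.99 to 3.70 CPM) did not pass in any comparison.

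Of the receptors, BMPR1B stood apart. This type I BMP receptor (chr4:94757968-95158448) read 37.0, 26.6 and 18.8 CPM in nonspecific vehicle and 142, 137 and 126 CPM in nonspecific DHT. With the paxillin siRNA it read 37.7, 28.9 and 30.3 CPM in vehicle and 149.7, 135 and 129 CPM in DHT. It rose 5.07-fold (2.34 ± 0.155, adjusted p = 1.3e-09) and 4.27-fold (2.09 ± 0.148, adjusted p = 3.1e-09), and in each arm the lowest DHT library lay far above the highest vehicle library. These are the largest changes in a well-expressed member, and they passed in all 18 alternatives of each arm.

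Another BMP type I receptor, BMPR1A, rose less. It went from 14.6, 12.5 and 12.2 to 16.1, 16.5 and 17.1 CPM under nonspecific siRNA (0.35 ± 0.095, adjusted p = 0.0063), and from 12.8, 12.5 and 12.5 to 16.4, 13.9 and 15.1 CPM under paxillin siRNA (0.27 ± 0.092, adjusted p = 0.03). The second call was lost in 7 of 18 alternatives: upper-quartile scaling, no filter, and without paxillin DHT replicate 1 or 3 or any 1 library of paxillin vehicle (adjusted p up to 0.14). ACVR1, a further type I receptor, fell from 20.4, 19.5 and 18.1 to 12.4, 13.3 and 15.3 CPM (-0.49 ± 0.139, adjusted p = 0.0086). Under paxillin siRNA its libraries overlapped, at 18.8, 15.7 and 23.6 against 13.1, 14.6 and 17.8 CPM (-0.35 ± 0.134, adjusted p = 0.048). That call was lost with the compared groups alone and without replicate 2 of nonspecific vehicle, nonspecific DHT or paxillin DHT, or without paxillin DHT 1 or paxillin vehicle 1 or 3 (adjusted p up to 0.27).

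The TGF-beta and activin receptors moved little. TGFBR1 read 27.0, 29.6 and 28.1 against 30.5, 30.3 and 31.8 CPM under nonspecific siRNA (0.125 ± 0.084, adjusted p = 0.25). In the paxillin siRNA arm it read 28.2, 26.5 and 31.4 against 29.7, 34.9 and 35.3 CPM (0.21 ± 0.082, adjusted p = 0.049), a call that only 3 of 18 alternatives kept, among them the replicate block; it was lost without any 1 of the 6 nonspecific libraries, and without replicate 1 or 2 of paxillin vehicle or 2 or 3 of paxillin DHT (adjusted p up to 0.25). ACVR1B stood at 92.8 to 104 CPM in nonspecific vehicle and 99.97 to 106 CPM in nonspecific DHT (0.08 ± 0.066, adjusted p = 0.36). None of the 4 type II receptors passed in either arm. With upper-quartile scaling ACVR1B and ACVR2A passed downward under paxillin siRNA (adjusted p = 0.028 and 0.042). BMPR2 read 158 to 195 CPM in nonspecific vehicle and 179.9 to 182 CPM in nonspecific DHT (-0.01 ± 0.087), and ACVR2A 13.1 to 13.4 and 11.9 to 14.1 CPM (-0.06 ± 0.096). ACVR2B stood at 9.72 to 11.1 CPM in the group means and passed in no comparison. TGFBR2, the TGF-beta type II receptor, read 1.28 to 1.59 CPM in nonspecific vehicle and 1.66 to 2.21 CPM in nonspecific DHT (0.36 ± 0.248, adjusted p = 0.26); under paxillin siRNA the change was 0.53 ± 0.218 (adjusted p = 0.065), which passed without paxillin DHT replicate 3. The co-receptor TGFBR3 fell from 19.8, 18.2 and 18.6 to 11.9, 15.2 and 15.6 CPM (-0.40 ± 0.107, adjusted p = 0.0059) under nonspecific siRNA, while under paxillin siRNA the change was -0.14 ± 0.107 (adjusted p = 0.32).

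**Figure D3:**
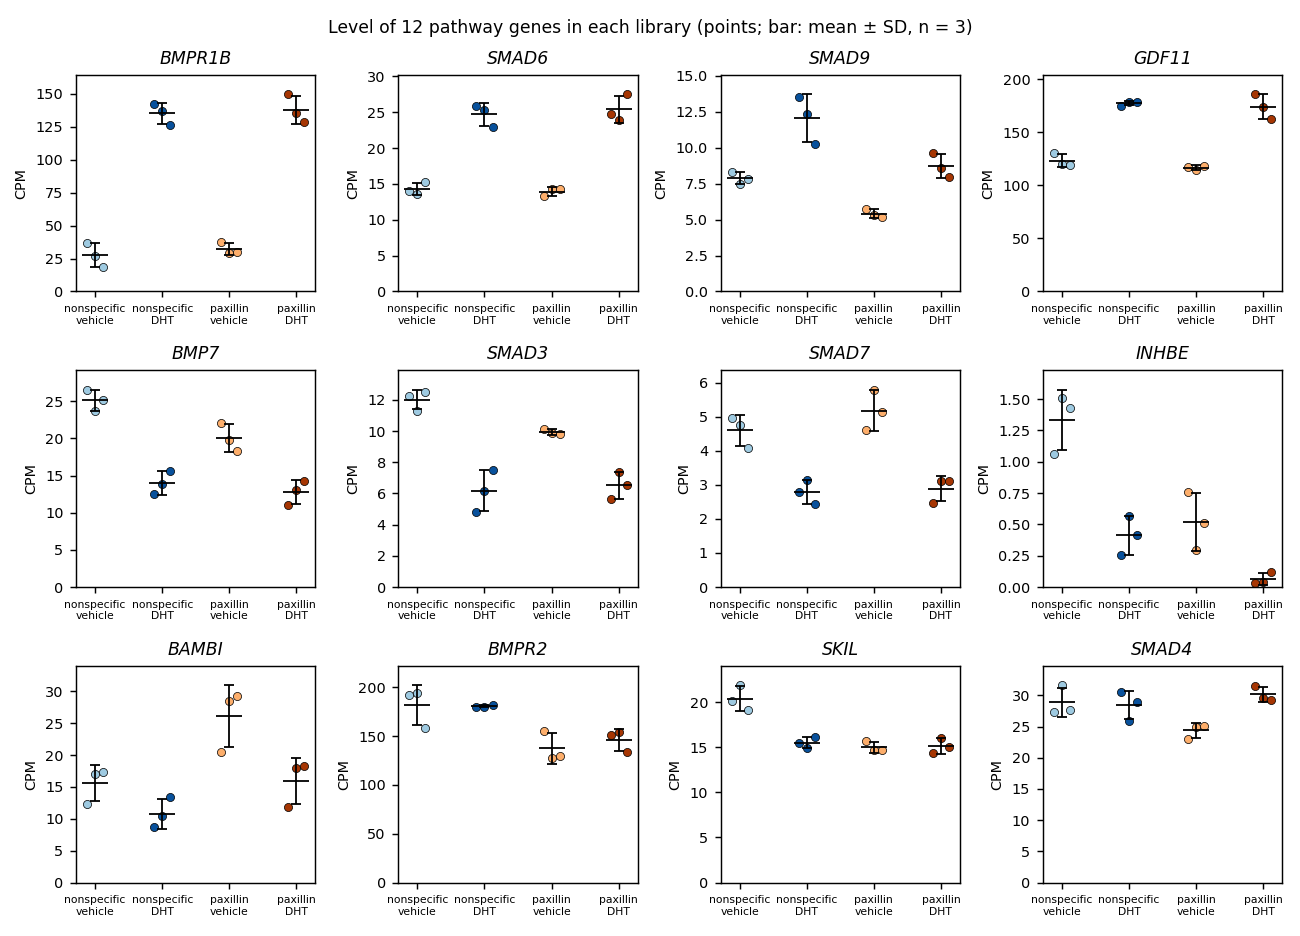
CPM of 12 members in each library (points), with the group mean and SD (bars, n = 3), for the 4 groups on the x axis; every y axis starts at 0. BMPR1B lies at 18.8 to 37.7 CPM in the 6 vehicle libraries and at 126 to 149.7 CPM in the 6 DHT libraries, SMAD6 and SMAD7 move with DHT in opposite directions, and SKIL lies above 19 CPM in nonspecific vehicle alone.

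The SMADs divided by DHT. SMAD3, a TGF-beta and activin SMAD (chr15:67063763-67195195), fell from 12.2, 11.3 and 12.5 to 4.84, 6.19 and 7.50 CPM under nonspecific siRNA (-0.95 ± 0.141, adjusted p = 3.2e-05). Under paxillin siRNA it fell from 10.1, 9.85 and 9.78 to 5.64, 7.4 and 6.53 CPM (-0.61 ± 0.138, adjusted p = 0.0019). All DHT libraries lay below all vehicle libraries in both arms. Its partner SMAD2 was far more abundant, at 70.2 to 73.6 CPM in nonspecific vehicle and 76.8 to 81.6 CPM in nonspecific DHT, and rose by 0.15 ± 0.057 (adjusted p = 0.04). Under paxillin siRNA SMAD2 rose by 0.16 ± 0.056 (adjusted p = 0.036), from 68.8 to 75 CPM up to 77.5 to 81.5 CPM. These small rises were lost in 7 and 9 of 18 alternatives (adjusted p up to 0.27 and 0.35). Among them were upper-quartile scaling, no filter and the compared groups alone. Under nonspecific siRNA the call was also lost without replicate 1 or 2 of either group compared, and under paxillin siRNA without replicate 1 or 3 of paxillin vehicle, 2 or 3 of paxillin DHT or 2 or 3 of nonspecific vehicle.

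Among the BMP SMADs only SMAD9 passed upward in both arms. SMAD9 (chr13:36844831-36920765) rose from 8.31, 7.48 and 7.86 to 13.5, 12.4 and 10.3 CPM (0.62 ± 0.123, adjusted p = 5.9e-04), and under paxillin siRNA from 5.75, 5.29 and 5.18 to 9.60, 8.58 and 7.96 CPM (0.69 ± 0.125, adjusted p = 2.6e-04). SMAD1 read 14.8, 15.8 and 16.1 against 14.7, 12.0 and 13.6 CPM under nonspecific siRNA, which did not pass (-0.22 ± 0.107, adjusted p = 0.12), though it did with upper-quartile scaling (adjusted p = 0.035) and, at a value that rounds to 0.05, with the replicate block. With the paxillin siRNA it fell from 18.1, 17.4 and 18.8 to 15.7, 11.9 and 13.6 CPM (-0.39 ± 0.103, adjusted p = 0.0055). SMAD5 read 63.1 to 71.7 against 75.1 to 85.8 CPM (0.23 ± 0.091, adjusted p = 0.051) and 50.9 to 62.3 against 58.6 to 74.2 CPM (0.19 ± 0.090, adjusted p = 0.1). With the replicate number as a block it passed in both arms, at adjusted p = 0.0021 and 0.0076. SMAD4, the common partner, read 27.4 to 31.6 against 26.0 to 30.5 CPM under nonspecific siRNA (-0.03 ± 0.082, adjusted p = 0.83) and rose from 23.1, 25.0 and 25.1 to 31.6, 29.6 and 29.3 CPM under paxillin siRNA (0.31 ± 0.080, adjusted p = 0.0055).

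The inhibitory SMADs moved in opposite directions. SMAD6, which acts chiefly on BMP signals (chr15:66702228-66782848), rose from 14, 13.6 and 15.3 to 25.8, 25.4 and 22.9 CPM under nonspecific siRNA (0.78 ± 0.088, adjusted p = 1.3e-06). In the paxillin siRNA arm it rose from 13.2, 14.3 and 14.2 to 24.7, 24.0 and 27.5 CPM (0.87 ± 0.085, adjusted p = 2.6e-07). SMAD7, which acts on TGF-beta and BMP signals alike (chr18:48919853-48952052), fell from 4.97, 4.77 and 4.10 to 2.78, 3.14 and 2.44 CPM (-0.72 ± 0.171, adjusted p = 0.0026). Under paxillin siRNA it fell from 4.6, 5.80 and 5.14 to 2.46, 3.11 and 3.11 CPM (-0.845 ± 0.162, adjusted p = 4.4e-04). For both genes the vehicle and DHT libraries were separate in each arm, and the calls held in all 18 alternatives.

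The sequence before the start of 3 of these genes is shown because BMPR1B rose most, SMAD6 rose and SMAD3 fell. RefSeq promoter entries (GRCh38.p14) covered 32 of the 36 tested members with 60 windows of 250 bases before a start, and 34 of the windows touch an exon of GENCODE 29. Which start C4-2 cells use cannot be read from gene counts. Capitals mark letters matching, on either strand, the androgen receptor half-site AGAACA, the SMAD box CAGAC, the GC-rich SMAD element GGCGCC or the palindromic SMAD element GTCTAGAC, the last of which was searched only after the SMAD6 window had been read. The windows below are on the plus strand, at chr15:66701986-66702235 for SMAD6, chr4:94757705-94757954 and chr4:95051427-95051676 for the first and last of the BMPR1B starts, and chr15:67065352-67065601 for the first SMAD3 start.
SMAD6: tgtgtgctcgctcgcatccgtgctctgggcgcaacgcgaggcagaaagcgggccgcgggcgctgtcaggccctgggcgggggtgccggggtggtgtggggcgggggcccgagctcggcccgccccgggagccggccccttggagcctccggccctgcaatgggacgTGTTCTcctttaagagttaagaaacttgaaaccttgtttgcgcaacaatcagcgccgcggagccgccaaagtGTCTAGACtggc
BMPR1B start 1: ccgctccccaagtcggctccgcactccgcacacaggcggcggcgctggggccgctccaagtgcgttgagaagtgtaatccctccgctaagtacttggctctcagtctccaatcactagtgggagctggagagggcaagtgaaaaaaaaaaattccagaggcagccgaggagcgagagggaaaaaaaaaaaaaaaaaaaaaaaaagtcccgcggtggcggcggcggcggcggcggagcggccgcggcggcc
BMPR1B start 3: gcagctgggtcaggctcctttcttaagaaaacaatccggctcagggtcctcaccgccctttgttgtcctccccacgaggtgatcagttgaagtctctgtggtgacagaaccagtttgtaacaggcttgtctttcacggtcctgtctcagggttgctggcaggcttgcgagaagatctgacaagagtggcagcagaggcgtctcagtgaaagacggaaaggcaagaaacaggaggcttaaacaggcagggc
SMAD3 start 1: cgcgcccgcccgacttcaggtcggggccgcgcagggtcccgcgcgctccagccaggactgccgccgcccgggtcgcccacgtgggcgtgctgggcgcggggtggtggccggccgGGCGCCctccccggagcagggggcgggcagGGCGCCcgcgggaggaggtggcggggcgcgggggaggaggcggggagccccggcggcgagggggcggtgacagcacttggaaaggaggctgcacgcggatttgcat

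In the SMAD6 window the half-site letters TGTTCT lie 84 to 79 bases before the RefSeq start and GTCTAGAC 12 to 5 bases before it; the GENCODE gene model starts within that palindrome. The window of SMAD3 start 1 holds GGCGCC 136 to 131 and 106 to 101 bases before the start, and the 2 BMPR1B windows shown hold none of the 4 motifs. The window of BMPR1B start 2, not shown because 44 of its bases lie in an exon, holds SMAD box letters 180 to 176 and 44 to 40 bases before the start. Of the other 4 SMAD3 starts, start 4 has 1 SMAD box and start 5 has 3, and starts 2 and 3 have no motif. SMAD7, which also fell, was read in the same way but is not shown. Its start 1 has 2 SMAD boxes, start 2 has 1 and start 3 has no motif. AGAACA was in 12.4% of all 35116 windows and in 6 of the 60 member windows (10.0%), CAGAC in 38.0% and 22 (36.7%), GGCGCC in 16.4% and 15 (25.0%), and GTCTAGAC in 64 windows (0.2%) and 1 (1.7%). The 1 member window with GTCTAGAC is that of SMAD6, in which the motif was first seen, so these 2 shares cannot be compared. No motif pair overlapped in the member windows. A match of letters is a description, not a binding site.

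The SMURF ubiquitin ligases both rose in both arms. SMURF2, which marks receptors and SMADs for degradation (chr17:64542295-64662068), went from 26.6, 25.0 and 25.6 to 36.3, 32.2 and 29.4 CPM (0.34 ± 0.092, adjusted p = 0.006). With the paxillin siRNA it went from 24.2, 19.7 and 20.3 to 33.7, 34.1 and 30.9 CPM (0.62 ± 0.091, adjusted p = 2.9e-05). SMURF1 rose from 33.8 to 41.0 and from 30.02 to 41.5 CPM (0.28 ± 0.067 and 0.47 ± 0.066), with an overlap of 11.7% of its exon bases by TRRAP on the other strand. The DHT libraries of both genes lay above the vehicle libraries in each arm.

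The SMAD corepressors differed. SKI rose from 109.6, 93.9 and 112 to 146, 136 and 135 CPM (0.41 ± 0.069, adjusted p = 1.3e-04), and under paxillin siRNA from 117, 119 and 130 to 152, 147 and 153 CPM (0.30 ± 0.068, adjusted p = 0.0017). SKIL fell from 20.1, 21.9 and 19.1 to 15.5, 14.9 and 16.1 CPM under nonspecific siRNA (-0.395 ± 0.086, adjusted p = 0.0013). In the paxillin siRNA arm it read 15.7, 14.7 and 14.7 in vehicle and 14.3, 16 and 15.03 CPM in DHT, with a change of 0.01 ± 0.085 (adjusted p = 0.94). SKIL was thus highest in the 3 nonspecific vehicle libraries, and the other 9 libraries lay within 14.3 to 16.1 CPM.

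BAMBI, a decoy receptor without a kinase domain (chr10:28677342-28682939), fell with DHT. Its nonspecific libraries, 12.4, 17.1 and 17.4 against 8.70, 10.4 and 13.3 CPM, overlapped (-0.55 ± 0.188, adjusted p = 0.026). That call was lost with DESeq2 and without replicate 2 or 3 of nonspecific vehicle or 1 or 2 of nonspecific DHT (adjusted p up to 0.12); with the replicate block it was 5.5e-05. Under paxillin siRNA the libraries were separate, 20.6, 28.6 and 29.2 against 11.8, 17.9 and 18.3 CPM (-0.71 ± 0.174, adjusted p = 0.0035). In every group replicate 1 was the lowest of the 3.

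Of the 4 ID genes, HLH inhibitors that are standard targets of BMP signals, only ID2 passed the filter. It read 4.48, 3.64 and 6.504 CPM in nonspecific vehicle and 3.25, 2.57 and 3.34 CPM in nonspecific DHT, a fall of 0.68 ± 0.203 (log2, adjusted p = 0.012) that was lost without nonspecific vehicle replicate 3 or nonspecific DHT replicate 2 (adjusted p up to 0.15). Under paxillin siRNA it read 3.55 to 4.01 against 2.72 to 3.50 CPM (-0.33 ± 0.199, adjusted p = 0.21). ID1 gave 1, 2 and 11 counts in nonspecific vehicle, 0, 5 and 2 in nonspecific DHT, 9, 7 and 6 in paxillin vehicle, and 2, 3 and 4 in paxillin DHT. The paxillin groups were separate, with ID1 2.34-fold lower in DHT (95% interval of the count ratio 1.03 to 5.77), and the nonspecific groups were not, at 2.26-fold (0.852 to 6.61). ID3 gave 14, 12, 26 and 16 counts in the same order of groups, with all ratio intervals for DHT including no change. ID4 had 7 counts over all 12 libraries.

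The 23 untested members were mostly ligands and secreted antagonists. BMP5, BMP15, GDF1, GDF3, GDF10 and GREM1 had 0 counts in all 12 libraries, which allows a level of up to 0.00985 CPM by counting error alone; all exon bases of GDF1 lie within CERS1, so its count is uncertain. BMP2 (5 counts), BMP10 and GDF6 (3 each), GDF7 and NOG (2 each), and BMP3 and GDF2 (1 each) were barely seen. NOG, GREM1 and FST, the secreted antagonists of the rule, had 14 counts in all. INHBA, the activin A subunit, had 15, ACVRL1 18 and ACVR1C 34. GDF5 had 27, at 4, 2, 14 and 7 in nonspecific vehicle, nonspecific DHT, paxillin vehicle and paxillin DHT. GDF5OS covers 35.2% of the exon bases of GDF5 on the other strand, so that count is uncertain.

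BMP4, a BMP ligand, was singled out after its values were seen. It gave 3, 6 and 8 counts in nonspecific vehicle, 2, 2 and 6 in nonspecific DHT, 5, 5 and 5 in paxillin vehicle and 0, 0 and 0 in paxillin DHT. With the 0 counts set to a floor of 3 over the group, it stood 4.78-fold lower in paxillin DHT than in paxillin vehicle. Against nonspecific DHT it stood 3.73-fold lower. These folds take the counts of the higher group as exact, so they are not lower limits. Under nonspecific siRNA the DHT ratio was 1.92-fold lower, with an interval of 0.83 to 4.69 that includes no change. FST gave 5, 6, 1 and 0 counts in the 4 groups, 2.24-fold lower in paxillin DHT than in nonspecific DHT with the same floor. INHBC gave 9 counts in paxillin vehicle and 30 in paxillin DHT, 3.49-fold higher (1.61 to 8.35), but 21 of the 30 came from replicate 1. These intervals take no account of the spread between libraries.

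**Figure D4:**
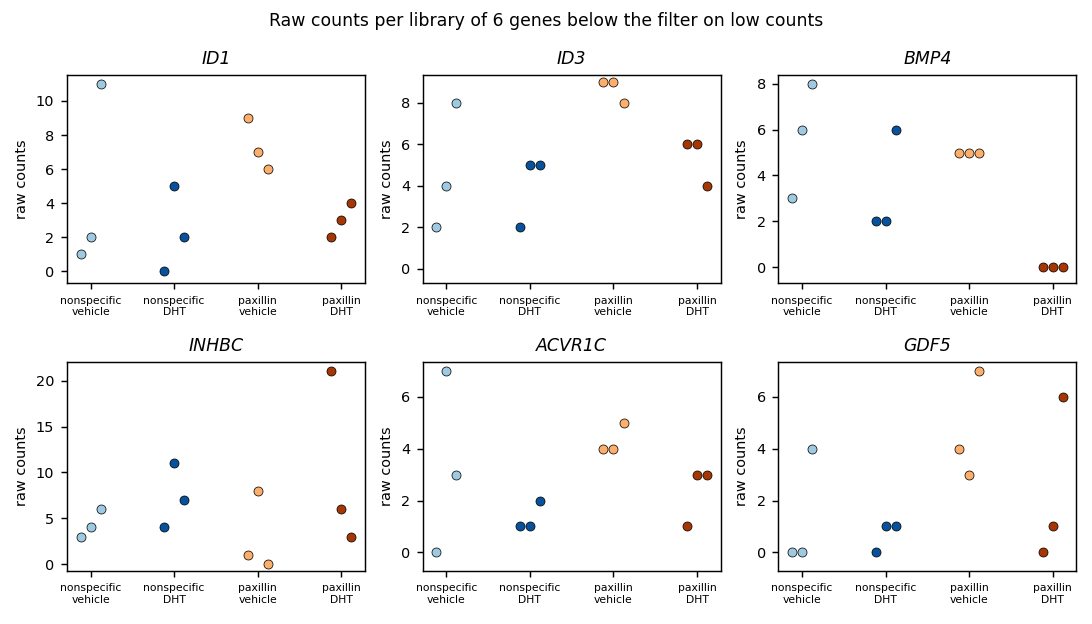
Raw counts of 6 members below the filter in each library, by group on the x axis; library totals differ, with nonspecific vehicle replicate 1 the smallest at 11944906 counts. BMP4 is at 0 in all 3 paxillin DHT libraries and at 2 to 8 counts elsewhere, and ID1 reaches at most 11 counts.

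The second question is what the paxillin siRNA does. In vehicle it raised 2 members and lowered 7 (25%), where 20.5% of all genes were called, 10.7% higher and 9.78% lower. In DHT it raised 0 and lowered 3 (8.33%), where 13.3% of all genes were called, 6.34% higher and 7% lower. In this fit, without the replicate block, these shares lie close to those of all genes in vehicle and below them in DHT. The difference was not tested. With the block, calls over all genes went from 1727 higher and 1576 lower to 2384 and 2173 in vehicle. In DHT they went from 1021 and 1128 to 1681 and 1805. More members also passed then, as named below. With the block the share of members called stood further above that of all genes in vehicle, and still below it in DHT. The reading of these shares as close in vehicle is therefore limited to the fit without the block. In the fit reported, 15 members in vehicle and 7 in DHT had an unadjusted p under 0.05. All genes were not counted at that threshold, so these counts have no share beside them. Separate groups were seen in 18 and 7 of the 36 members, against 35.9% and 32.1% of all genes.

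SMAD9, BMPR2 and INHBE fell under both treatments. SMAD9 fell from 7.88 to 5.41 CPM in vehicle (-0.535 ± 0.129, adjusted p = 0.0071) and from 12.1 to 8.71 CPM in DHT (-0.46 ± 0.119, adjusted p = 0.015). With the values given for DHT above, it was lowest in paxillin vehicle and highest in nonspecific DHT, and each siRNA pair of groups was separate. BMPR2 (chr2:202376936-202567751) read 192, 195 and 158 CPM in nonspecific vehicle and 156, 127 and 129 CPM in paxillin vehicle, a fall of 0.40 ± 0.087 (log2, adjusted p = 0.0035). In DHT it read 179.9, 180.1 and 182 against 150.7, 155 and 134 CPM (-0.30 ± 0.087, adjusted p = 0.027). INHBE fell by 1.37 ± 0.367 in vehicle (adjusted p = 0.013) and by 2.65 ± 0.630 in DHT (log2, adjusted p = 0.0095), as count ratios 2.64-fold (1.83 to 3.87) and 6.72-fold lower (2.58 to 22.2).

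Several of these calls were lost when 1 library was left out. Such a fit also has fewer libraries, so a loss does not show that the call rested on the library left out. In DHT, BMPR2 was lost without any 1 nonspecific DHT library or paxillin DHT replicate 3 (adjusted p up to 0.12), and SMAD9 without replicate 1 or 2 of nonspecific DHT or 2 or 3 of paxillin DHT (up to 0.079). The INHBE call in vehicle was lost without nonspecific vehicle replicate 2 or paxillin vehicle replicate 2 or 3 (up to 0.078). BMPR2 and SMAD9 in vehicle passed in all 18 alternatives, and INHBE in DHT in the 17 that could test it, since too few of its counts were left with the compared groups alone.

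SKIL, TGFBR3, BMP7 and SMAD4 fell in vehicle. SKIL fell by 0.44 ± 0.085 (log2, adjusted p = 0.0016) and TGFBR3, from 18.2 to 19.8 CPM down to 13.7 to 14.7 CPM, by 0.42 ± 0.106 (adjusted p = 0.0097). BMP7 fell from 25.1 to 20.1 CPM (-0.32 ± 0.105, adjusted p = 0.039) and SMAD4 from 28.9 to 24.4 CPM (-0.25 ± 0.082, adjusted p = 0.038). BMP7 lost its call without any 1 nonspecific vehicle library, paxillin vehicle replicate 2 or 3, nonspecific DHT replicate 2 or paxillin DHT replicate 2 (adjusted p up to 0.18). SMAD4 lost it with no filter, with the compared groups alone, and without nonspecific vehicle replicate 2 or 3, any 1 paxillin vehicle library or paxillin DHT replicate 2 (up to 0.23). In DHT the changes of these 4 were -0.035, -0.16, -0.13 and 0.085, and none passed. The siRNA call of SMAD4 and its DHT call both use the paxillin vehicle libraries, the lowest of its group means. For SKIL and TGFBR3 both calls use nonspecific vehicle, the highest of their group means. The siRNA and DHT calls of these genes are thus not separate observations.

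BAMBI and SKI rose in vehicle. BAMBI, at 12.4, 17.1 and 17.4 CPM in nonspecific and 20.6, 28.6 and 29.2 CPM in paxillin vehicle, rose by 0.72 ± 0.177 (adjusted p = 0.0085). In DHT its libraries overlapped, 8.70 to 13.3 against 11.8 to 18.3 CPM, and the change of 0.56 ± 0.185 did not pass (adjusted p = 0.055), but did with the replicate block (9.2e-05). SKI rose by 0.22 ± 0.069 in vehicle (adjusted p = 0.034), a call lost with the compared groups alone and without nonspecific vehicle replicate 2 or paxillin vehicle replicate 2 or 3 (up to 0.17).

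With the replicate block, in vehicle INHBB, BMPR1B, BMP1 and BMP8B also passed upward (adjusted p = 0.016, 0.044, 0.037 and 0.035), and SMURF1, SMAD5 and SMURF2 downward (0.049, 0.0032 and 0.008). In DHT SMAD5 and ACVR1B also passed downward with the block (0.0012 and 0.025). BMPR1B, SMAD6, SMAD3, SMAD7 and GDF11, each called for DHT in both arms, had siRNA changes in DHT of 0.03 ± 0.139, 0.04 ± 0.083, 0.07 ± 0.145, 0.05 ± 0.174 and -0.03 ± 0.060, none of which passed.

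**Figure D5:**
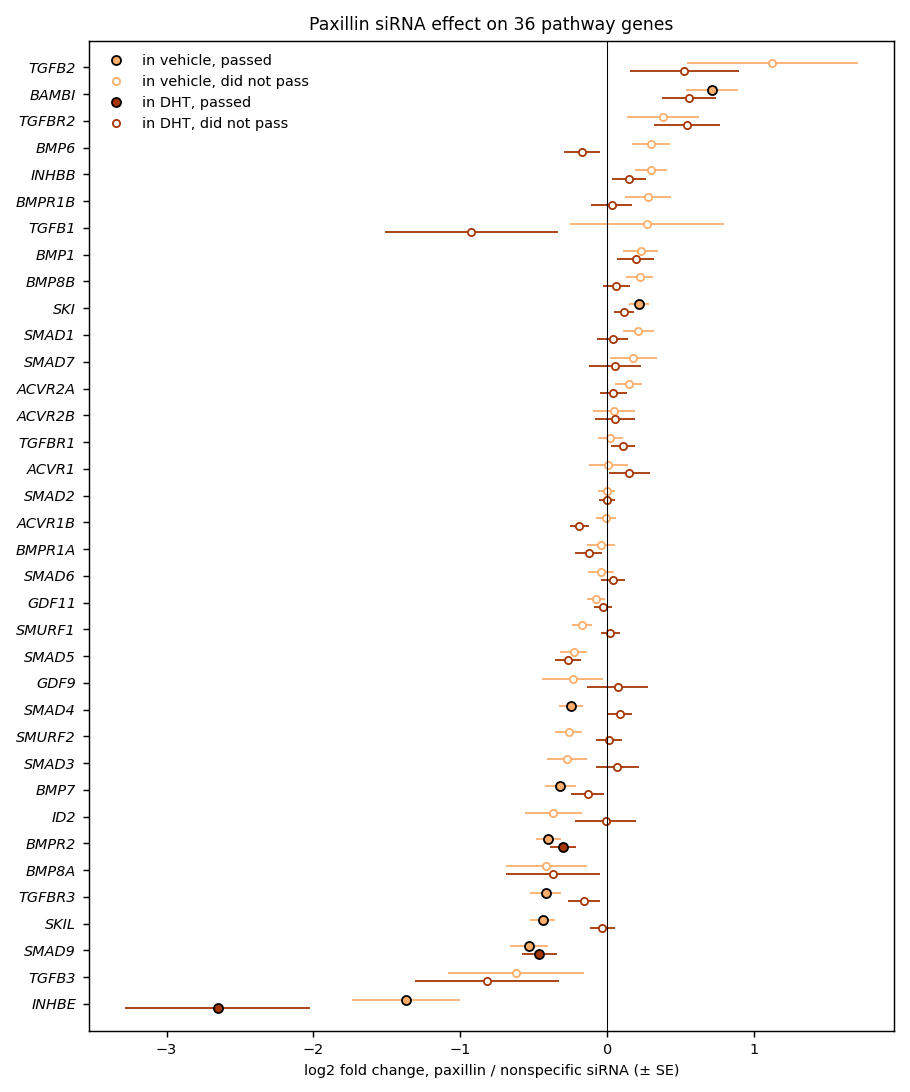
Log2 fold change of paxillin over nonspecific siRNA for the 36 tested members in vehicle (light) and DHT (dark), with SE as bars; filled points passed an adjusted p under 0.05. Of the 36, 9 passed in vehicle and 3 in DHT, with INHBE farthest left at -1.37 and -2.65 and BAMBI at 0.72 in vehicle.

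The third question is whether the siRNA changes the response to DHT. The interaction was called for 0 of the 36 members in edgeR's quasi-likelihood test and for 8 of all tested genes (0.0496%), and for 0 by DESeq2 among the 30 members for which it gave an adjusted p. At an unadjusted p under 0.05 there were 4 members, and all genes were not counted at that threshold. The DHT log2 change was more positive under paxillin siRNA for SKIL by 0.405 ± 0.121 (adjusted p = 0.34), SMAD4 by 0.335 ± 0.115 (adjusted p = 0.43) and SMURF2 by 0.28 ± 0.129 (adjusted p = 0.56), and less positive for BMP6 by -0.47 ± 0.178 (adjusted p = 0.46). INHBE and TGFB1, with few counts, had the widest estimates at -1.28 ± 0.749 (adjusted p = 0.64) and -1.20 ± 0.790 (adjusted p = 0.68). For BMPR1B the difference was -0.25 ± 0.210, so the responses under the siRNAs were not told apart, nor shown to be equal.

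Other pathway genes were read from 6 further lists. Of 15 tested extracellular regulators, which bind, store or cleave ligands, DHT raised 2 and lowered 7 under nonspecific siRNA and raised 2 and lowered 8 under paxillin siRNA. As above, 21.6% of all genes were called higher and 18.9% lower in the first arm and 20.1% and 17.9% in the second. LTBP1, which stores latent TGF-beta in matrix, fell from 27.4 to 14.1 and from 28.1 to 13.1 CPM (-0.95 ± 0.121 and -1.10 ± 0.119). LTBP2 fell from 26.5 to 15.4 and from 22.2 to 12.8 CPM, and the BMP antagonist CHRD from 4.10 to 2.06 and from 2.25 to 1.46 CPM. NBL1, another secreted BMP antagonist, rose from 0.391 to 6.86 and from 0.404 to 5.04 CPM (4.18 ± 0.309 and 3.62 ± 0.288). Over the list the median log2 change was -0.25 and -0.26, against -0.01 for all genes.

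Of 16 tested intracellular regulators, 7 rose and 1 fell with DHT under nonspecific siRNA, and 7 rose and 0 fell under paxillin siRNA, where 40.5% and 38% of all genes were called in either direction. PMEPA1, an androgen-induced membrane protein that holds back receptor SMADs, rose from 79.5 to 868 and from 86.4 to 798 CPM, 10.95-fold and 9.23-fold (3.45 ± 0.096 and 3.21 ± 0.094). The SMAD corepressor TGIF1 rose from 20.6 to 35.3 and from 25.3 to 45.4 CPM, and the kinase HIPK2 from 164 to 307 and from 206.5 to 399 CPM. With the paxillin siRNA HIPK2 rose by 0.33 ± 0.085 and 0.38 ± 0.084 and TGIF1 by 0.29 ± 0.080 and 0.37 ± 0.074, in vehicle and DHT. Of 4 co-receptors, RGMB rose while RGMA and NEO1 fell in both DHT arms, and of AMH and AMHR2, the other tested ligand and receptor, neither passed anywhere.

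Of 9 tested TGF-beta targets DHT raised 3 and lowered 1 under nonspecific siRNA, and raised 2 and lowered 3 under paxillin siRNA, beside 40.5% and 38% of all genes called. FN1, the fibronectin gene, fell from 535 to 282 and from 380 to 222 CPM, JUNB rose from 23.5 to 39.2 and from 27.7 to 38.0 CPM, and SNAI2 rose from 0.0513 to 3.54 and from 0.0691 to 6.06 CPM. COL1A1, both a listed target and a stromal marker, fell with the paxillin siRNA from 41.2 to 34.0 and from 35.8 to 26.3 CPM, while DCN, LUM and COL1A2 stayed at or near 0 counts. Of the other stromal markers COL3A1 fell with DHT from 1.03 to 0.174 and from 1.13 to 0.237 CPM. ACTA2 rose with the siRNA in vehicle from 1.56 to 2.81 CPM and fell with DHT under paxillin siRNA to 1.54 CPM, and PDGFRB passed nowhere. The part of these markers in the results was not tested. Of 9 tested BMP targets 4 rose and 2 fell in each DHT arm: HES1 from 6.93 to 22.9 and from 10.6 to 22.2 CPM, DLX2 from 1.94 to 5.07 and from 2.20 to 5.96 CPM, and RUNX2 and ATOH8 rose, while GATA2 and MSX2 fell. No list was tested as a whole. With the paxillin siRNA RUNX2 rose by 1.57 ± 0.177 and 0.92 ± 0.151 and DLX5 fell by 2.01 ± 0.460 and 1.91 ± 0.514 (log2), in vehicle and DHT. HES1, a Notch target as well, had an interaction of -0.66 ± 0.161 (adjusted p = 0.22), which passed with the replicate block, DESeq2 or no filter.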

How the data were processed

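RNA from 12 libraries was made into stranded TruSeq mRNA libraries, per the labels' protocols. The authors deposited whole-number counts of 56269 gene symbols with unequal library totals (11944906 to 32040465), taken here as raw counts. Per the submitters' processing notes, the build was GRCh38 and the tools were STAR 2.5.2b, featureCounts of Subread 1.5.0p3 and Trimmomatic 0.36. Neither the annotation release nor the strand setting is stated in those notes or the labels, so overlapping and antisense genes and paralogs are uncertain.

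The analysis ran in edgeR 4.0.16 under R 4.3.3. Of all genes, 16115 passed filterByExpr (minimum count 10, minimum total 15). Libraries were scaled by TMM, and a mean per group was fitted to all 12 libraries by quasi-likelihood. Levels are CPM of the scaled totals, and SE derives from the F statistic. Members below the filter are raw counts, with exact conditional binomial 95% intervals of ratios and a floor of 3 counts over a group or over all libraries; both cover counting error only. Lengths and coordinates come from GENCODE 29. On simulated counts, only the median fold change estimate for DHT under nonspecific siRNA was checked. The other contrasts, the count intervals and the motif search were not checked this way, and no pairing of replicates was simulated.

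The members and lists were chosen with earlier results of these data known. Named with values were, in each comparison, the 6 called members that rose most and the 6 that fell most, given a group mean of at least 1 CPM, a panel of receptors, SMADs, TGFB1 and IDs whatever its test, and up to 3 rising and 3 falling genes per list; the other members were added so that all are accounted for.

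The labels use the same replicate numbers in each group. Same-numbered libraries deviated together: over 10646 genes, residuals of all 18 such pairs correlated at 0.15 to 0.48, and of the 36 other pairs at -0.42 to 0.20. By this check the numbers pair the samples. The reported fit has no block, as the design had set, and the block is an alternative whose value stands beside each member result where it changes a call. Within groups, libraries differed beyond sampling noise (chi-square per degree of freedom 6.16 to 18.6), so all were counted. DESeq2 1.42.0, scaling by RLE or the upper quartile, dropping the filter, fitting the compared groups alone and leaving out each library were the others.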

Additional observations from a re-analysis of the deposited data

How the results depend on the processing

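Each pairwise count was recomputed under 18 alternatives and the interaction under 17. Single members had 1 fewer where a gene fell below the filter with the compared groups alone (TGFB1 and INHBE for DHT under paxillin siRNA and for the siRNA in DHT, TGFB2 for the siRNA in vehicle) or DESeq2 gave no adjusted p (the interaction of TGFBR2, BMP8A, TGFB1, TGFB2, TGFB3 and INHBE). Of the member calls, 18 of 23 (DHT under nonspecific siRNA), 17 of 23 (DHT under paxillin siRNA), 5 of 9 (paxillin siRNA in vehicle) and 1 of 3 (paxillin siRNA in DHT) held in every alternative that could test them. Of 5410 recomputed estimates 113 changed sign, and 0 of these passed the threshold in either fit. The counts of members and of other pathway genes moved by DHT stayed within 1.5 times under every alternative run. Those of the siRNA did not, and apart from the smaller number of libraries in the leave-one-out fits, the cause was not tested. For the siRNA in vehicle, 2 members rose in the fit reported, 6 with the replicate block, 1 with the compared groups alone and 1 to 5 with 1 library left out, and the 7 that fell became 4 to 8 with 1 left out. In DHT, 0 rose, against 1 with no filter or the replicate block and 0 to 1 with 1 library left out. The 3 that fell became 5 with upper-quartile scaling, no filter or the replicate block, and 1 to 5 with 1 library left out. Of other pathway genes, the 6 raised in vehicle became 2 to 7 and the 9 lowered 5 to 10 with 1 library left out, and the 5 lowered in DHT became 12 with the replicate block and 3 to 7 with 1 left out. The 6 lists behind these counts held 15, 2, 4, 16, 9 and 9 tested genes. In the fit reported, 10.7% of all genes were called higher and 9.78% lower in vehicle, and 7% lower in DHT. For the interaction 0 of the other pathway genes were lowered, against 1 (HES1) with no filter, DESeq2 or the replicate block. Libraries without which a count for members moved by over 1.5 times were, in vehicle, nonspecific vehicle replicates 1 and 2 and paxillin vehicle replicates 2 and 3, and in DHT, nonspecific vehicle 1, nonspecific DHT 1, 2 and 3, paxillin vehicle 1 and 3 and paxillin DHT 1 and 3. With the replicate block the calls over all genes went from 3481 higher and 3053 lower to 3967 and 3470 for DHT under nonspecific siRNA, and from 8 in all to 42 and 55 for the interaction. Members with few counts (INHBE, TGFB1, TGFB2 and TGFB3) are limited by depth.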
